A study of Mus musculus with 13 samples.

Results

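The proteasome genes of mouse gastrocnemius muscle were followed across 3 treatments. They were taken from the table of normalized counts by symbol, as every gene whose name begins with Psma, Psmb, Psmc, Psmd, Psme, Psmf or Psmg followed by a number, pseudogenes left out. There were 50 such genes among the 21868 in the table, and 48 of them had a mean of at least 10 normalized counts over the 13 mice, the limit above which genes were tested. Over all genes, 12303 reached it. Male C57BL/6 mice (the label; C57BL/6N in the study), 7 weeks old at the start and given 1 week of acclimatization, had been made obese on a diet with 60 kcal% fat for 15 to 17 weeks and then moved to chow, and these steps were common to all groups. For 3 weeks, 5 mice received phosphate-buffered saline (vehicle), 5 mice received semaglutide, an agonist of the GLP-1 receptor, by intraperitoneal injection at 30 nM/kg/day, and 3 mice received semaglutide in the same way while drinking water that held 0.114 g/mL of a ketone ester. Per the labels, both groups without the ketone ester also received a placebo. No group received the ketone ester alone, and caloric intake was not analysed here. Each library came from frozen gastrocnemius tissue of 1 mouse with its cell types mixed. A smaller share of a cell type and less RNA per cell of that type therefore cannot be told apart.

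The proteasome is the protease that degrades most ubiquitin-tagged proteins of the cell. Its core is a barrel of alpha and beta subunits, in which some of the beta subunits cut peptide bonds, and its regulatory cap, made of a base with ATPases and a lid, binds tagged proteins, removes the ubiquitin and feeds the chain into the barrel. Dedicated chaperones assemble core and cap, other activators can replace the cap, and in immune cells or after interferon the catalytic subunits are exchanged for immunoproteasome forms. In skeletal muscle, the ubiquitin-proteasome pathway carries much of the breakdown of contractile protein during wasting.

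Between 15319471 and 23498162 reads per mouse lay on genes. Among the semaglutide-treated mice, replicate 1 stood apart. On the first principal component of all genes tested, which held 38.1% of the variance, it scored -9.12, against 31.8 to 52.5 for the remaining 4, the vehicle-treated mice between -24.5 and -12.9 and the semaglutide + ketone ester-treated mice between -25.6 and -15.8. Semaglutide replicate 4 differed from the rest in markers of other cells. Its 7 lymphocyte genes, among them Cd3e, Cd8a and Cd79a, summed to 158 normalized counts against 2.40 to 12.1 in the other 12 mice, and its 3 adipocyte genes summed to 5612 against 37.2 to 1702. Transcripts of 8 muscle fibre genes, including Ckm and Acta1, made up 12.3 to 13.9% of all counts in vehicle-treated mice, 9.55 to 13.8% in semaglutide-treated mice, where replicate 1 was the highest, and 14.8 to 16.7% with the ketone ester. The part of these differences in the results was not tested. Without replicate 1, 8 proteasome genes that were not called in the main fit, described below, were called higher under semaglutide. They were Psmb1, Psmb2, Psmb8, Psmc1, Psmd1, Psmd11, Psmd12 and Psmf1. In the 13 fits that each left out 1 mouse, Psmb8 was called in 2 and each of the others in 1. Replicate 1 was singled out for lying near vehicle, so larger estimates without it follow from that choice.

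Under semaglutide, 11 of 17 genes of the proteasome cap, 4 of 7 of the alpha ring and 2 of 4 non-catalytic beta subunits were called higher than with vehicle. With the ketone ester against semaglutide alone, 9 of the 17, 3 of the 7 and 1 of the 4 were called lower. Differences between parts of the proteasome were not tested. The gene with the largest estimate in both comparisons, Psmd8, belongs to the cap. In the main fit, described next, none of the 3 constitutive catalytic subunits, the 3 immunoproteasome subunits or the 7 assembly chaperones was called. Some of these genes were called in alternatives given below. By limma on log2(normalized count + 1), with p-values adjusted over all 12303 genes tested and a threshold of 0.05, semaglutide-treated mice had 17 of the 48 genes above vehicle-treated mice and 1 below. Over all genes tested, 11.9% were called higher and 13.2% lower. The gene below was Psme1, a subunit of an alternative activator. The median log2 fold change of the 48 genes was 0.27, with 34 of the estimates above 0, while the median of all genes tested was -0.0029.

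Between semaglutide + ketone ester-treated and semaglutide-treated mice, 13 of the 48 genes were lower, against 9.3% of all genes, and Psme1 alone was higher, against 9.09% of all genes. The median log2 fold change was -0.24. When only these 2 groups were fitted, 1 gene, Psmd8, was called lower, against 2.93% of all genes, and Psme1 stayed higher (adjusted p = 0.031), while Psma7, Psmb3, Psmc2, Psmd2, Psmd3 and Psmd4 kept their estimates with adjusted p of 0.051 to 0.077. Of the 17 genes that were higher under semaglutide, 11 were among these 13, namely Psma4, Psma7, Psmb3, Psmc2, Psmc4, Psmc5, Psmd2, Psmd3, Psmd4, Psmd7 and Psmd8. The semaglutide-treated mice enter both comparisons, so a gene called in both is not independent evidence. No proteasome gene was called between semaglutide + ketone ester-treated and vehicle-treated mice, where 0.236% of all genes were called in either direction. A count of 0 among 48 is near that share and does not show that these genes are equal in the 2 groups. With no adjustment, Psmb8 alone of the 48 had a limma p under 0.05 in that comparison, and edgeR and DESeq2 on the recovered reads also called 0 genes and left Psmb8 as the only gene under 0.05. The moderated F-test over the 3 groups called 18 of the 48, against 23.8% of all genes. With the columns rescaled to equal totals, 31 of the 48 were higher under semaglutide, where 26.5% of all genes were called higher and 7.52% lower, and 30 were lower with the ketone ester than with semaglutide alone, where 29.1% of all genes were called lower and 4.95% higher.

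**Figure D1:**
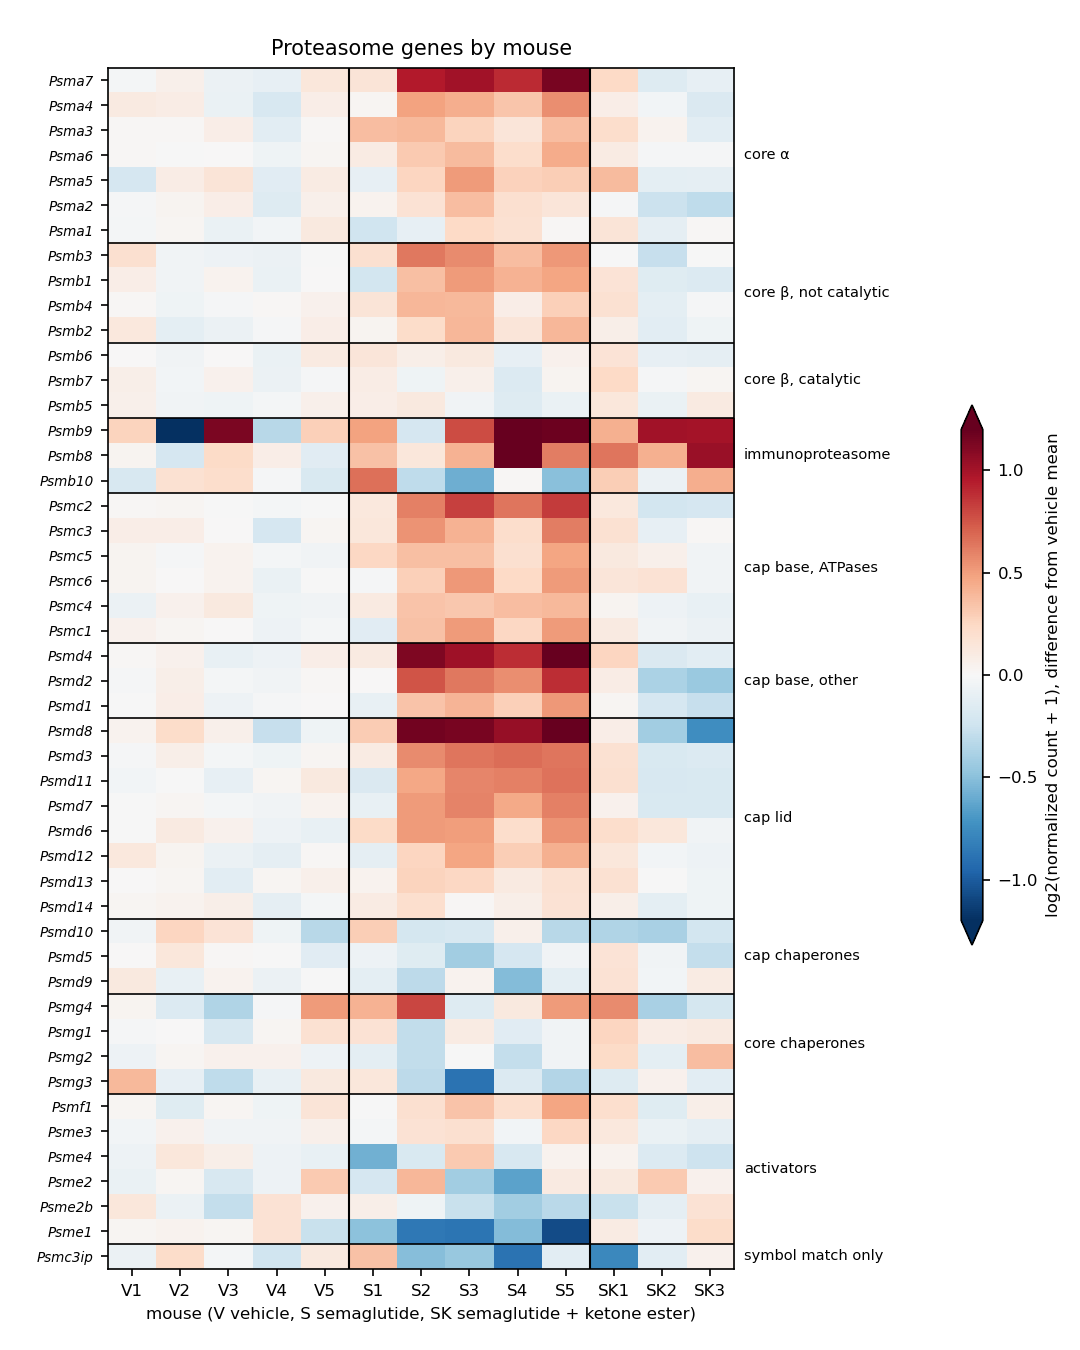
Difference of each of the 48 tested proteasome genes (rows, ordered by role) from the vehicle mean, in log2(normalized count + 1), for each of the 13 mice (columns; colour, scale at the right). Semaglutide mice S2 to S5 are red over most core and cap genes, mouse S1 is close to the vehicle-treated mice, and Psme1 is blue in all 5 semaglutide-treated mice.

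How far each semaglutide-treated mouse carried the pattern differed. Of the 17 genes called higher, replicate 1 lay above every vehicle-treated mouse in 12, by 0.13 on average over the 17 (log2, from the vehicle mean). Each of the other 4 mice lay above every vehicle-treated mouse in all 17, by 0.44 to 0.67. These 17 genes were chosen by the same comparison, so such separation was largely set by that choice. Over all 48 genes, the mean was 0.064 in replicate 1 and 0.19 to 0.32 in the other 4, against -0.059 to 0.031 under vehicle. Without replicate 1, 25 of the 48 genes were called higher under semaglutide (17.3% of all genes) and 22 lower with the ketone ester than with semaglutide alone (16.2% of all genes). Without replicates 1 and 4 together, a choice made after the data were seen, the counts were 25 and 24 (17.4% and 16.5% of all genes). The count of 13 genes lower with the ketone ester was 3 when replicate 2 or replicate 3 of the semaglutide + ketone ester group was left out, and these 3 were Psmb3, Psmc2 and Psmd8 in both cases. The count of 17 was 11 without vehicle replicate 4 or without semaglutide replicate 5. The shares of all genes called in these 4 fits were not computed. Whether these drops are particular to the proteasome genes therefore cannot be said. Psma6, Psma7, Psmb3, Psmc2, Psmc4, Psmc5, Psmd3, Psmd4, Psmd6, Psmd8 and, in the other direction, Psme1 were called under semaglutide whichever mouse was left out, while Psmc6, at an adjusted p of 0.046 with all mice, was called in 1 of the 13 such fits, Psmb4 in 4, Psmd7 in 5, Psma4 in 8 and Psmc3 in 10.

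All 17 cap genes lay above 0 under semaglutide, with a median log2 fold change of 0.38 against -0.0029 over all genes tested. Of the 17, 11 were called higher, against 11.9% of all genes. With the ketone ester, all 17 lay below their level under semaglutide alone, with a median of -0.35 against -0.00024 over all genes. Here 9 were called lower, against 9.3% of all genes. As a mean over the 17 genes, the log2 difference from vehicle was 0.05 in semaglutide replicate 1 and 0.42 to 0.62 in the other semaglutide-treated mice, against -0.07 to 0.05 under vehicle and -0.16 to 0.13 with the ketone ester.

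Psmd8, a lid subunit needed for the lid to join the base, changed the most. Its normalized counts were 4099, 4643, 4169, 3299.8 and 3852 in the 5 vehicle-treated mice. They were 4916, 8921, 8795, 8250.4 and 9502 in the semaglutide-treated mice, and 4221, 2994 and 2383 in the semaglutide + ketone ester-treated mice. Every semaglutide-treated mouse lay above every mouse of the other groups, replicate 1 by the smallest margin. The mean rose from 4012 ± 491 to 8077 ± 1822 (SD, n = 5 each), a log2 fold change of 0.98 (SE 0.19, adjusted p = 0.0044), and stood at 3199 ± 936 (SD, n = 3) with the ketone ester, a log2 fold change of -1.34 against semaglutide alone (SE 0.22, adjusted p = 0.0031). The remaining lid genes ranged from 0.11 to 0.52 under semaglutide, and Psmd3, Psmd6 and Psmd7 were also called higher. Psmd14, which encodes the deubiquitinase of the lid, had the smallest difference, 0.11 (SE 0.071, adjusted p = 0.27). Its counts were 771 to 875 under vehicle, with a median of 842, and 841 to 953 under semaglutide, with a median of 889.7, so the groups overlapped.

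In the base, the largest change was in Psmd4, a receptor that binds ubiquitin chains. Vehicle-treated mice had 2077, 2136, 1936, 1968 and 2181 normalized counts, semaglutide-treated mice 2214, 4469.5, 4166, 3814 and 5391, and semaglutide + ketone ester-treated mice 2463, 1822 and 1884. All semaglutide-treated mice were above all vehicle-treated mice, but replicate 1 only just, and below replicate 1 of the ketone ester group. The log2 fold change was 0.90 (SE 0.19, adjusted p = 0.0066) under semaglutide and -0.92 (SE 0.22, adjusted p = 0.016) with the ketone ester. Psmd2, a docking scaffold of the base, had 0.57 (adjusted p = 0.019) under semaglutide and -0.81 (adjusted p = 0.0097) with the ketone ester. Psmd1, the other large scaffold, was not called under semaglutide (0.29, SE 0.11, adjusted p = 0.067) and was lower with the ketone ester (-0.45, SE 0.13, adjusted p = 0.03). Without semaglutide replicate 1 it was called in both, at 0.39 (SE 0.081, adjusted p = 0.0034) and -0.54 (SE 0.092, adjusted p = 0.0013).

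Of the 6 ATPases that unfold substrates, Psmc2 to Psmc6 were called higher under semaglutide. Psmc2 led them, with counts of 1764, 1774, 1737, 1715 and 1734 under vehicle, 1901, 2659.6, 3089, 2729 and 3121 under semaglutide, and 1906, 1500.2 and 1515 with the ketone ester. The vehicle-treated mice were tightly grouped, and all semaglutide-treated mice lay above them. Its log2 fold change was 0.61 (SE 0.13, adjusted p = 0.0061) under semaglutide and -0.71 (SE 0.15, adjusted p = 0.0082) with the ketone ester. The other ATPases lay between 0.30 and 0.38 under semaglutide. Psmc1, the smallest, had 0.30 (SE 0.11, adjusted p = 0.074), and semaglutide replicate 1, at 1549, was below every vehicle-treated mouse. Without that mouse, Psmc1 had 0.41 (SE 0.077, adjusted p = 0.0020) and was called. This was the only such call in the 13 fits with 1 mouse left out. Psmc4 and Psmc5 joined Psmc2 in being called lower with the ketone ester.

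**Figure D2:**
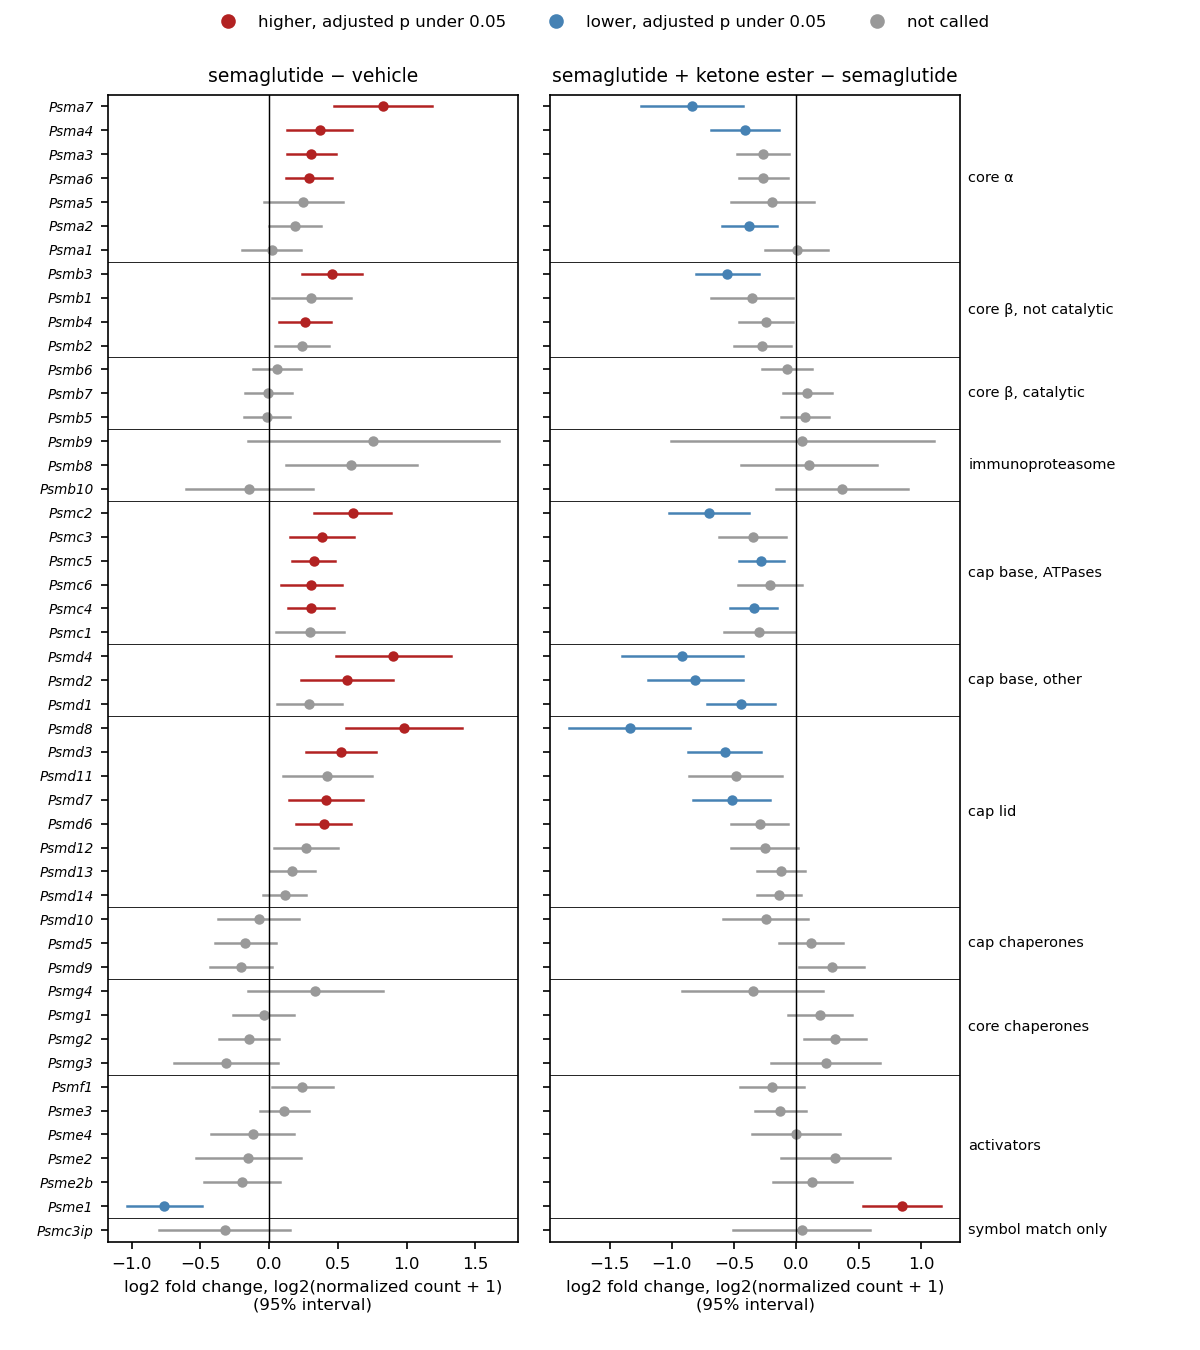
Log2 fold change with its 95% interval for the 48 tested proteasome genes, for semaglutide against vehicle (left) and semaglutide + ketone ester against semaglutide (right), in log2(normalized count + 1). Red and blue mark genes called higher and lower; the cap genes lie right of 0 at the left and left of 0 at the right, and Psme1 is the exception among called genes.

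Of the 14 core genes tested that are not immunoproteasome genes, 6 were called higher under semaglutide, against 11.9% of all genes. Their median log2 fold change over the 14 was 0.25. With the ketone ester, 4 of the 14 were called lower, against 9.3% of all genes, with a median of -0.27. Core and cap were not tested against each other. Psma7, an alpha subunit, had the largest estimate of the core. Its counts were 1145, 1209, 1104, 1081 and 1275 under vehicle, 1288, 2252, 2329, 2163 and 2563 under semaglutide, and 1366, 1040.0 and 1083 with the ketone ester. Replicate 1 of the semaglutide group exceeded the highest vehicle-treated mouse by a narrow margin and lay below the highest mouse given the ketone ester. The log2 fold changes were 0.83 (SE 0.16, adjusted p = 0.0044) and -0.84 (SE 0.19, adjusted p = 0.012). Psma3, Psma4 and Psma6 were also called higher, at 0.29 to 0.37. Psma2 was called only in the second comparison (-0.38, SE 0.10, adjusted p = 0.024), and whether its 2 differences themselves differ in size was not tested. Psma1, another alpha subunit, had the smallest change of the ring (0.02, SE 0.10, 95% interval -0.20 to 0.24).

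Among the beta subunits that do not cut, Psmb3 led, with 555, 473, 465, 462 and 484 counts under vehicle, 558, 754, 722, 631 and 699.7 under semaglutide, and 486, 401 and 484 with the ketone ester. Vehicle replicate 1 was far above the other vehicle-treated mice and almost equal to semaglutide replicate 1. The log2 fold changes were 0.46 (SE 0.10, adjusted p = 0.0073) and -0.55 (SE 0.12, adjusted p = 0.0082). Psmb4 was called higher under semaglutide (0.26), while Psmb1 (0.31) and Psmb2 (0.24) were not, with adjusted p of 0.11 and 0.072. Without semaglutide replicate 1 both were called, Psmb1 at 0.44 (adjusted p = 0.0020) and Psmb2 at 0.29 (adjusted p = 0.021).

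**Figure D3:**
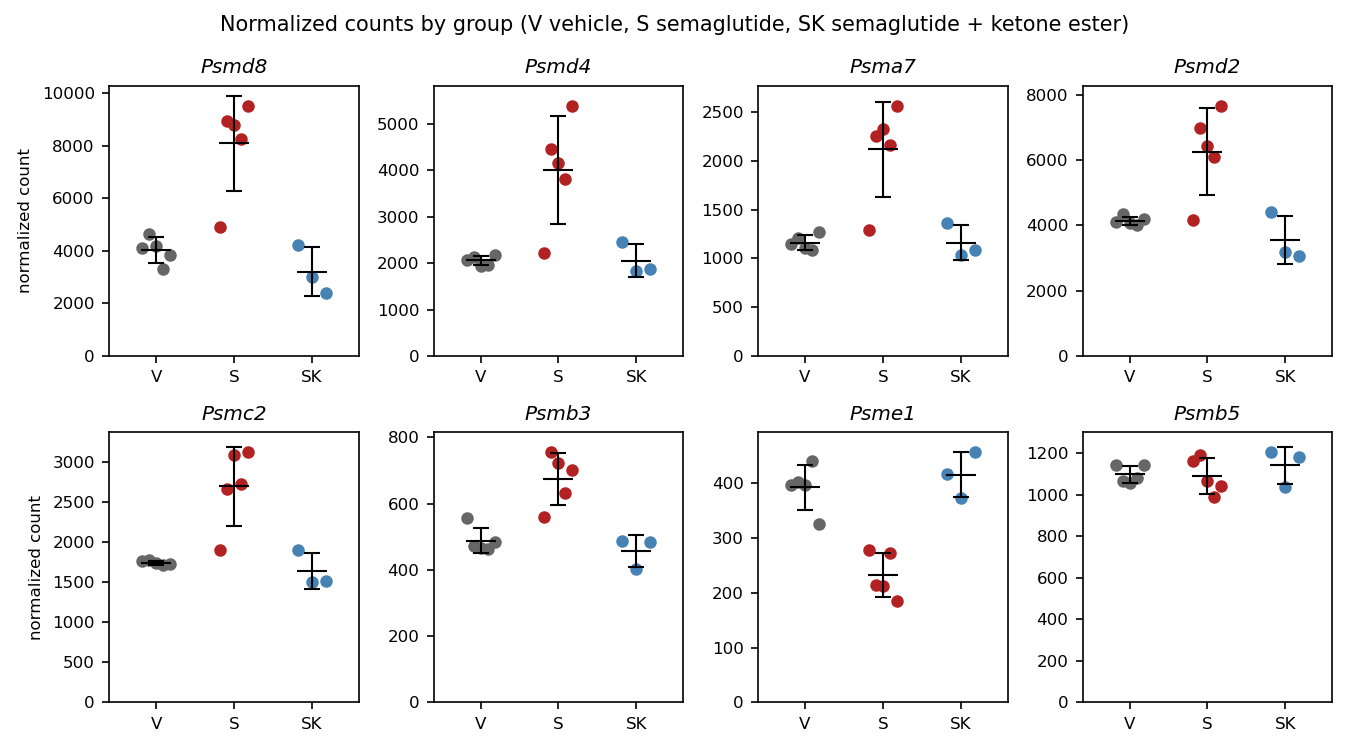
Normalized counts per mouse for 8 proteasome genes (points), with the group mean and SD (bars), for 5 vehicle-treated (V), 5 semaglutide-treated (S) and 3 semaglutide + ketone ester-treated (SK) mice. In Psmd8, Psmd4, Psma7, Psmd2, Psmc2 and Psmb3 the leftmost semaglutide point, replicate 1, is the lowest of its group and near the vehicle level; Psme1 runs the opposite way and Psmb5 is level.

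None of the constitutive catalytic subunits was called in any comparison of the counts as deposited. Psmb5, which carries the chymotrypsin-like site, had 1057 to 1143 counts under vehicle, with a median of 1079, 989 to 1193 under semaglutide, with a median of 1064, and 1038 to 1204 with the ketone ester, with a median of 1182. The groups overlapped throughout, and the log2 fold change under semaglutide was -0.01 with a 95% interval of -0.18 to 0.15. Psmb6, the caspase-like subunit, had 0.06 (-0.12 to 0.23). Psmb7, the trypsin-like subunit, had -0.0046 (-0.17 to 0.16). Whether these genes differ from the other beta subunits in their change was not tested. With the columns rescaled to equal totals, which moved the median of all genes to 0.17, the 3 values were 0.16, 0.23 and 0.17, and Psmb6 was called (adjusted p = 0.04).

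Reads per length set the immunoproteasome far below these subunits in this muscle. Per kilobase of annotated exon, vehicle-treated mice had means of 10.3 normalized counts for Psmb8 against 1221 for Psmb5, which it replaces, 5.42 for Psmb9 against 925 for Psmb6, and 64.3 for Psmb10 against 784 for Psmb7. Psmb8 had 35.5, 30.1, 40.8, 36.6 and 31.4 counts under vehicle, 44.5, 38.3, 46.7, 98.1 and 53.7 under semaglutide, and 54.7, 47.1 and 72.1 with the ketone ester. All mice given the ketone ester were above all vehicle-treated mice, and semaglutide replicate 4, the mouse with the lymphocyte transcripts, was the highest of all. The log2 fold change was 0.60 (SE 0.22, adjusted p = 0.063) under semaglutide and 0.70 (SE 0.25, unadjusted p = 0.016, adjusted p = 0.34) with the ketone ester against vehicle, and neither passed the threshold. Without replicate 4, the first was 0.38 (SE 0.14, adjusted p = 0.074), and without replicate 1 it was 0.66 (SE 0.23, adjusted p = 0.045), past the threshold. Psmb8 was called under semaglutide in 6 of its 24 alternatives, of which 2 were among the 13 fits with 1 mouse left out.

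Psmb9, at 6.02 to 38.4 counts under vehicle, 14.7 to 51.5 under semaglutide and 23.1 to 35.0 with the ketone ester, had medians of 20.6, 30.0 and 34.9. Its groups overlapped, and the log2 fold change under semaglutide was 0.76 (SE 0.42, adjusted p = 0.21), with semaglutide replicate 4 again the highest. Psmb10 had 94.98 to 126 counts under vehicle, 72.2 to 172 under semaglutide and 104 to 148 with the ketone ester. In Psmb10 the highest semaglutide-treated mouse was replicate 1, at 172, while the other 4 lay between 72.2 and 109.7. The log2 fold change was -0.14 (SE 0.21, adjusted p = 0.65) with all mice and -0.46 (SE 0.14, adjusted p = 0.029) without replicates 1 and 4. For semaglutide + ketone ester against semaglutide, Psmb10 was not called in the main fit. Without replicate 1 it was higher by 0.57 (SE 0.17, adjusted p = 0.026) and without replicates 1 and 4 by 0.68 (SE 0.16, adjusted p = 0.0091). Replicates 1 and 4 had the highest Psmb10 counts of the semaglutide group, so larger estimates without them follow from leaving them out. With 1 mouse left out, Psmb10 was called in 1 of 13 fits in this comparison and in 0 of 13 under semaglutide. Psmb8 and Psmb9 both lie in the MHC region of chromosome 17 (chr17:34197721-34201454, + strand, and chr17:34181987-34187764, - strand). Of the exon bases of Psmb9, 5.79% are also exon of Tap1 on the opposite strand, and of those of Psmb8, 14.7% are exon of Gm20496 on the opposite strand. Psmb5 shares 12.1% with Mir686 on the same strand and Psmb7 11.8% with Nek6 on the opposite strand. Leukocyte markers, summed over 16 genes of which 9 reached the mean of 10, were 834 to 2287 counts under vehicle, 788 to 2860 under semaglutide, with replicate 4 the highest, and 1176 to 2102 with the ketone ester.

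**Figure D4:**
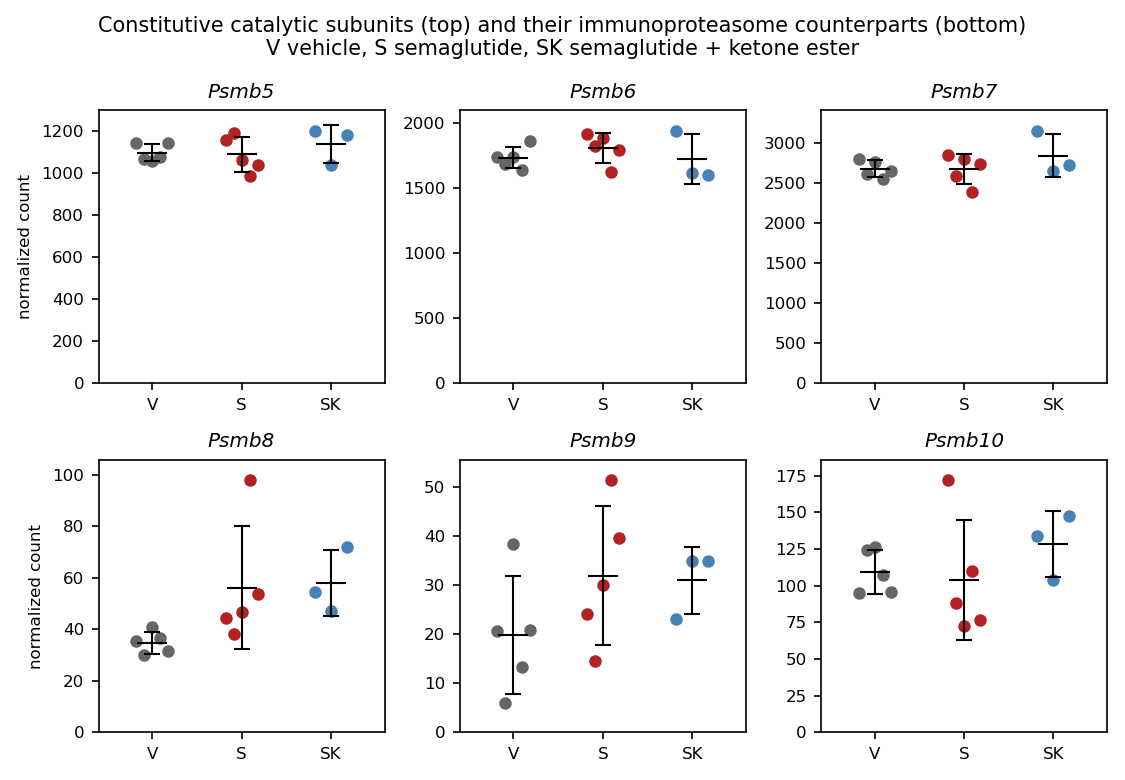
Normalized counts per mouse (points), with the group mean and SD (bars), of the constitutive catalytic subunits Psmb5, Psmb6 and Psmb7 (top) and of Psmb8, Psmb9 and Psmb10, which replace them in the immunoproteasome (bottom), each on its own axis. V, S and SK are the vehicle, semaglutide and semaglutide + ketone ester groups. The top row shows overlapping groups; at the bottom the highest point of Psmb8 and Psmb9 is semaglutide replicate 4 and that of Psmb10 is semaglutide replicate 1.

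In the main fit, the assembly chaperones were not called in any comparison. The 4 core chaperones, Psmg1 to Psmg4, which help the alpha subunits form their ring, had log2 fold changes of -0.32 to 0.34 under semaglutide. Psmg1 had 94.0 to 122 counts under vehicle and 87.9 to 122 under semaglutide, with a log2 fold change of -0.04 (SE 0.10). Psmg3 had -0.51 (SE 0.17, adjusted p = 0.040) without semaglutide replicates 1 and 4 and -0.46 (adjusted p = 0.043) with arrayWeights, which weight each mouse by its fit, and was then called lower. The 3 chaperones of the base, Psmd5, Psmd9 and Psmd10, lay between -0.20 and -0.08, and the median over all 7 chaperones was -0.15. In the main fit, none of the 7 passed the test between semaglutide + ketone ester and semaglutide, where the median was 0.19. The chaperone Pomp, which matures the core and lies outside the symbol rule, had -0.13 (adjusted p = 0.29) under semaglutide.

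Psme1 was the only proteasome gene called lower under semaglutide. It encodes the alpha chain of a cap-like activator that opens the core to peptides without ubiquitin or ATP and is known for its part in antigen processing. Its counts were 397, 401, 396, 440.2 and 325 under vehicle, 278, 214, 212, 272 and 185 under semaglutide, and 417, 373 and 455 with the ketone ester. No semaglutide-treated mouse overlapped either other group, replicate 1 included. The mean fell from 392 ± 41.7 to 232 ± 40.6 (SD, n = 5 each) and was 415 ± 41.1 (SD, n = 3) with the ketone ester. The log2 fold changes were -0.76 (SE 0.13, adjusted p = 0.0017) and 0.85 (SE 0.15, adjusted p = 0.0035). The gene lies at chr14:55578123-55581529 on the + strand.

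Psme2, the partner chain of Psme1 in the same ring, was not called in the main fit. Its counts ran from 50.7 to 72.2 under vehicle, from 36.9 to 76.6 under semaglutide and from 60.1 to 72.5 with the ketone ester, and the log2 fold change under semaglutide was -0.15 (SE 0.18, adjusted p = 0.56). Its value is uncertain, because Psme2b on chromosome 11 is a near-identical copy with which it can share reads. The copy had a mean of 231 counts per kilobase of exon over all mice against 33.0 for Psme2. With the ketone ester against semaglutide alone, Psme2 had 0.31 (SE 0.20, adjusted p = 0.30). Psme2b had -0.20 (adjusted p = 0.27) under semaglutide and 0.13 (adjusted p = 0.57) with the ketone ester against semaglutide alone. These estimates have the same signs as those of Psme1, and whether they differ from them in size was not tested. Of the remaining activators, Psme3, a nuclear form of the same ring, had 0.11 (SE 0.082, adjusted p = 0.34), Psme4, a large single-chain activator, had -0.12 (SE 0.14, adjusted p = 0.56), and Psmf1, a regulator of core function, had 0.24 (SE 0.10, adjusted p = 0.10), and 0.30 (SE 0.096, adjusted p = 0.030) without semaglutide replicate 1. With semaglutide + ketone ester against semaglutide these 3 lay between -0.20 and -0.0045, and none was called in the main fit.

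Of the genes matched by symbol, 3 stood outside this account. Psma8, the testis form of an alpha subunit, had 2 recovered reads in 1 vehicle-treated mouse, 1 read in each of 2 other mice and 0 in the rest, and Psmb11, the thymus-specific catalytic subunit, had 1 read in 1 mouse and 0 in the other 12. A count of 0 allows up to 3 reads, counting error alone considered, or 1.28e-05 to 1.96e-05% of a library. Psmc3ip encodes a protein of meiotic recombination that is no proteasome subunit, and its log2 fold change under semaglutide was -0.32 (SE 0.22, adjusted p = 0.30).

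Genes that work with the proteasome but carry other names gave a mixed picture. Of 23 such genes tested, 6 were higher and 1 lower under semaglutide, against 11.9% and 13.2% of all genes. The median log2 fold change was 0.18. Those higher included Adrm1, a ubiquitin receptor in the cap (0.76, adjusted p = 0.0022), the shuttle proteins Rad23b (0.49) and Ubqln1 (0.36), the cap-bound thioredoxin Txnl1 (0.46), and Ubfd1 (0.41). Ube3c, a ubiquitin ligase bound to the proteasome, fell by 0.44 (adjusted p = 0.0076). With the ketone ester against semaglutide alone, 4 of the 23 were called lower, Adrm1, Rad23b and Ubqln1 among them, against 9.3% of all genes. Ube3c alone was higher, against 9.09% of all genes. Nfe2l1, a transcription factor known to drive proteasome genes, had -0.10 (adjusted p = 0.56) and Nfe2l2, its relative, 0.15 (adjusted p = 0.52) under semaglutide.

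Among the genes that supply ubiquitin, the ubiquitin genes Rps27a (0.64) and Ubb (0.63) were higher under semaglutide and Uba6, an enzyme that activates ubiquitin, was lower (-0.54). Ubb was lower and Uba6 higher with the ketone ester than with semaglutide alone. Of 16 MHC class I and interferon genes tested, 1 was called higher under semaglutide, Ifit1 (1.06, adjusted p = 0.0099), against 11.9% of all genes. Those called with the ketone ester against semaglutide included Ifit1 (-1.32) and Irf8 (-1.05), which were lower, and Gbp3 (0.72), which was higher. Tap1 and Tap2, which carry peptides cut by the proteasome into the endoplasmic reticulum, had -0.0035 and 0.30 under semaglutide, and neither was called.

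Start regions of the proteasome genes were looked up in RefSeq (GRCm38.p6), which listed 42 of the 50, each from 250 bases before to 50 bases after the start. Stretches of 120 bases directly before the GENCODE start of the gene are shown for the lid and base genes that rose the most and for a catalytic subunit that was not called. Capitals mark a pattern found by search on both strands, TGACNNNGC, the core of the antioxidant response element, or CCAAT, the box bound by NF-Y; in the Psmd4 stretch CCAAT stands on the other strand and reads ATTGG. The stretches are chr7:29180702-29180821 (- strand) for Psmd8, chr3:95042615-95042734 (- strand) for Psmd4 and chr14:54618023-54618142 (- strand) for Psmb5.
Psmd8: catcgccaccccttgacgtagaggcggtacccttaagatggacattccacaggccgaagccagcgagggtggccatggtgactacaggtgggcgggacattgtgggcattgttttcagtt
Psmd4: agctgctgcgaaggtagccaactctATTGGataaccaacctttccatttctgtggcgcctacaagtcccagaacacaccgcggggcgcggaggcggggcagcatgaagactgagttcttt
Psmb5: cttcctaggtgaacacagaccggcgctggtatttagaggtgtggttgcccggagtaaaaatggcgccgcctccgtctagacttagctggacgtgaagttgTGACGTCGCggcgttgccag
The Psmd8 stretch holds neither pattern. Over whole windows, TGACNNNGC was found in 6 of the 42 proteasome genes, 14.29%, against 13.99% of 27025 genes, and of these 6 only Psmc6 was called higher under semaglutide. CCAAT was found in 15 of the 42, 35.71%, against 41.06% of all genes. A match is a description of these letters and not a site, and the 2 patterns do not overlap in the stretches shown.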

How the data were processed

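RNA from the gastrocnemius of 13 mice was sequenced as stranded, poly(A)-selected libraries. The authors aligned the paired-end reads to mm10 with DRAGEN; the submitters' processing notes also name DESeq2, without a role. The authors deposited a signal value per gene and mouse, a read count normalized between mice. The counting program, its strand setting and the annotation are not given in the sources used here. In each column 100% of the values were whole multiples of 1 step within 0.05, so whole reads were recovered, as an alternative only. Mice were grouped by their treatment label. All carry the same batch label, and replicates are numbered in accession order.

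Log2(normalized count + 1) was tested with limma 3.58.1 for genes with a mean of at least 10, with 3 groups in 1 fit and Benjamini-Hochberg adjustment over all 12303 genes; a call is an adjusted p under 0.05. Fold changes on this scale understate the change of low genes, and p-values assume similar spread in each group. Alternatives were pseudocounts of 0.5 and 5, no filter, a mean of 50, equal totals, quantile normalization, arrayWeights, fits of only the 2 groups compared, each mouse left out, edgeR 4.0.16 and DESeq2 1.42.0 on the recovered reads, and the study's criterion of an analysis of variance with a fold limit. Fits added after the data were seen were those without semaglutide replicates 1 and 4 and with a mean-variance trend. The members, the pathway and marker lists and the genes described in full (the catalytic pairs, and in each role the called gene with the largest change, the gene with the smallest, and any called chaperone or activator) were chosen with earlier results of these data known. Positions and exon lengths came from GENCODE vM21 (GRCm38, all 50 members matched). The fitting steps were tested on simulated data. Each value rests on 1 library per mouse, and intervals on read numbers cover counting error only. Some genes of the pathway lists are not reported here.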

Additional observations from a re-analysis of the deposited data

Results flagged for a closer look

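Within each group of 5 mice, the gap between the highest or lowest mouse and its nearest neighbour was set against the whole range of the group, for the genes described in full and the role means. The gap exceeded the critical share of 0.71 in 5 of the 72 groups examined, and by chance about 5% of groups would be expected to. Semaglutide replicate 4 had 98.08 normalized counts of Psmb8, far above the other semaglutide-treated mice; it also had the lymphocyte and adipocyte transcripts described above. Vehicle replicate 1 had 554.99 counts of Psmb3, above the other vehicle-treated mice. Semaglutide replicate 1 accounted for the other 3. Its Psmd8, at 4915.8 counts, was far below the other semaglutide-treated mice. Its mean log2 difference from vehicle was 0.048264 over the 8 lid genes, far below the others, and 0.040002 over the 3 chaperones of the base, far above them. The part that the cell content or the treatment of these mice has in these values was not tested.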

How the results depend on the processing

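Rescaling the columns to equal totals moved the median of all genes to 0.17 under semaglutide and to -0.24 for semaglutide + ketone ester against semaglutide. With this rescaling, 31 members were higher under semaglutide (26.5% of all genes) and 30 lower with the ketone ester (29.1% of all genes). The F-test called 30, and the medians of the members were 0.4394 and -0.4802. With arrayWeights the counts were 28 and 25 (19.4% and 18% of all genes). In the other direction, 2 were lower under semaglutide (20% of all genes) and 2 higher with the ketone ester (16.7% of all genes). Without semaglutide replicates 1 and 4, 24 were lower (16.5% of all genes) and 2 higher (15.5% of all genes) with the ketone ester. In that fit 3 were lower under semaglutide (Psme1, Psmb10, Psmg3), against 17.9% of all genes. When only the 2 groups compared were fitted, 15 members were higher under semaglutide (9.63% of all genes) and 1 was lower with the ketone ester (2.93% of all genes). By the study's criterion 6 members varied over the groups. For that criterion and for the F-test with equal totals, the share of all genes was not computed. With any 1 mouse left out there were 11 to 25 higher under semaglutide, 3 to 22 lower and 1 to 2 higher with the ketone ester. The F-test then called 10 to 25 (10 without semaglutide replicate 2, 3 or 5). Apart from the pairwise counts without semaglutide replicate 1, the shares of all genes were not computed for these fits. The count of 0 between semaglutide + ketone ester and vehicle held in all 25 alternatives, although the sign of the median did not.

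Genes that were not called and lay near 0 under semaglutide changed sign. With equal totals, Psmb10 had 0.0288, Psmb5 0.1604, Psmb7 0.1695, Psmd10 0.0965 and Psmg1 0.1331. Psmb7 had 0.0028 with quantile normalization, 0.0172 with arrayWeights, 0.0086 by edgeR, 0.0031 by DESeq2 and 0.0159 without semaglutide replicates 1 and 4, where Psmb5 had 0.0003. Psma1 had -0.0178 with quantile normalization. With each mouse left out, Psmb5 ran from -0.0474 to 0.0205, Psmb7 from -0.029 to 0.0352, Psma1 from -0.0365 to 0.0839 and Psmg1 from -0.0931 to 0.0235. The direction of every called gene described in full held in all its alternatives. No paired analysis was possible because mice of different groups share no number in the labels. The causes of these changes were not tested. With 3 mice given the ketone ester, comparisons with that group rest on few animals, and genes with few reads, such as Psmb8 and Psmb9, are the least precise.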

Other observations

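Marker genes of muscle and other cells moved as well. Over all genes tested, 13.2% were called lower under semaglutide and 9.09% higher with the ketone ester than with semaglutide alone. Of 8 fibre genes, 3 were lower under semaglutide, Mb, the oxygen store of oxidative fibres (-2.15), Myh4 (-0.60) and Acta1 (-0.46), and 4 were higher with the ketone ester than with semaglutide alone. Of 9 leukocyte genes tested, the MHC class II genes H2-Aa (-1.34), Cd74 (-1.10) and H2-Ab1 (-1.06) were lower under semaglutide. The list was mixed, with 6 estimates below 0 and 3 above, Cd68 (0.83), Ptprc (0.22) and Lyz2 (0.04), none of these 3 called. Of 3 fibroblast genes, Col1a1 (-3.02) and Pdgfra (-0.62) were lower, and of the tendon genes Tnmd (-3.43) was lower, while Scx (0.29) was not called. With the ketone ester against semaglutide alone, Col1a1 (3.03), Tnmd (3.67) and the endothelial gene Kdr (0.41) were higher and Scx (-1.07) lower. No adipocyte gene and no other endothelial gene was called. The 3 red cell genes, Hba-a1, Hbb-bs and Alas2, were not called under semaglutide and were all higher with the ketone ester than with semaglutide alone, by 3.62 to 3.95. These are log2 fold changes by limma, and the part that cell content has in them was not tested.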
